A study of Arabidopsis thaliana with 24 samples.

Results

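Transcript levels in roots of the Arabidopsis thaliana mutant clf-28 were compared with those in wild-type (WT) roots. There were 3 clf-28 root libraries and 3 root libraries of WT plants of the accession Col-0, all from plants grown for 2 weeks on MS plates under long days at 22 °C, and they are 6 of the 24 libraries of the series. The shoot libraries set beside them below were also of 2 weeks. The inflorescence and silique libraries were of 5 weeks, so these organs differ from roots in age too. The labels give no other allele or transgene, describe neither the clf-28 lesion nor how many plants went into a library, and the series' design text calls the replicates biological. Each library was strand-specific single-end RNA-seq of total RNA, and each value was FPKM, the fragments on a gene scaled to transcript length and library size. The deposited gene table had 34178 lines, and the 764 that named no gene were left out. Of the other lines, 19505 had no failed root value, reached 1 FPKM in at least 3 root libraries and were tested.

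CURLY LEAF (CLF) is a histone methyltransferase of Polycomb repressive complex 2, which places the repressive mark H3K27me3 on histone H3. It shares this task with SWINGER (SWN), and in seeds with MEDEA (MEA). The complex is known for keeping floral homeotic and flowering genes off in vegetative tissue and embryo genes off after germination. A root has concentric cell types, among them root hair cells on the surface, the endodermis with its Casparian strip and suberin, and the vascular tissues, all descended from cells around the quiescent centre at the tip.

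WT roots replicate 1 stood apart from the other 5 libraries. Its summed FPKM over chloroplast genes was 6737, against 47.0 to 164 in the other root libraries, and over mitochondrial genes 2066, against 257 to 454. Its Spearman correlation across genes was 0.924 and 0.921 with WT replicates 2 and 3, against 0.983 between those 2 and 0.980 to 0.982 among the clf-28 libraries. Summed FPKM over all genes, which is not a depth, ran from 926658 to 971482 in clf-28 roots and from 849519 to 1123011 in WT roots. Of 8 genes that define pollen, a cell type the samples should lack, 1 was tested and was not called, and the list summed to 3.202 to 4.005 FPKM in clf-28 roots and 1.75 to 3.85 FPKM in WT roots. Genes of green leaf tissue were present in all 6 libraries and are given below.

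The CLF transcript (AT2G23380) had 7.76, 7.42 and 8.09 FPKM in clf-28 roots, against 8.09, 13.8 and 14.2 FPKM in WT roots. WT replicate 1 lay at the clf-28 level and WT replicates 2 and 3 above it. The difference, on the scale log2(FPKM + 1) used for every log2 value here, was -0.54 (SE 0.21) and did not pass the test (limma adjusted p = 0.154). Without WT replicate 1 it was -0.78 and passed (adjusted p = 0.000346). A level over the whole gene does not show the lesion, so it does not check the genotype.

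Of the 19505 lines, 1776 were higher in clf-28 roots than in WT roots (9.11%) and 888 were lower (4.55%) at an adjusted p under 0.05. The rises were the larger changes. Among the called lines 855 were at least 2-fold higher (4.38% of those tested) and 110 at least 2-fold lower (0.564%). Values of the 2 groups did not overlap for 3788 lines with clf-28 above WT (19.4%) and 4031 with clf-28 below WT (20.7%). The mean in WT roots was under 0.5 FPKM for 142 of the lines called higher (8.0%), against 152 of all lines tested (0.779%). A line that low in WT could pass the filter only through its clf-28 values. The filter favoured rises among such lines, so this contrast is no result about genes silent in WT. The same limit holds for each gene named below with less than 1 FPKM in all WT roots. Such a gene could be called only as a rise. Among them are ABR1, DDF2, BHLH92, FLS2, GA2OX7, AT5G07310, SESA4, CRU3 and YAB2. Of the called lines 66.7% were higher, but 50.4% after quantile normalization, which moved the median difference over all lines to -0.09, against -0.03 on the deposited scaling.

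Which library was left out changed these counts more than any other setting. Without WT replicate 1, 4612 lines were higher (23.6%) and 3500 lower (17.9%), and of the calls over 6 libraries 1770 and 884 were among them in the same direction. Every count of list or family members given below for that setting is to be read beside these shares. Without clf-28 replicates 1, 2 and 3 in turn the lines called higher numbered 814, 784 and 765, and those called lower 184, 135 and 125. Without WT replicates 2 and 3 there were 1049 and 1205 higher and 218 and 394 lower. Calls that passed with each of the 6 libraries left out in turn numbered 721 higher and 102 lower, and a call described below as kept is one of these. Lines of genes split over several lines or merged with a neighbour made up 275 of the 2664 calls, and such calls are uncertain.

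**Figure D1:**
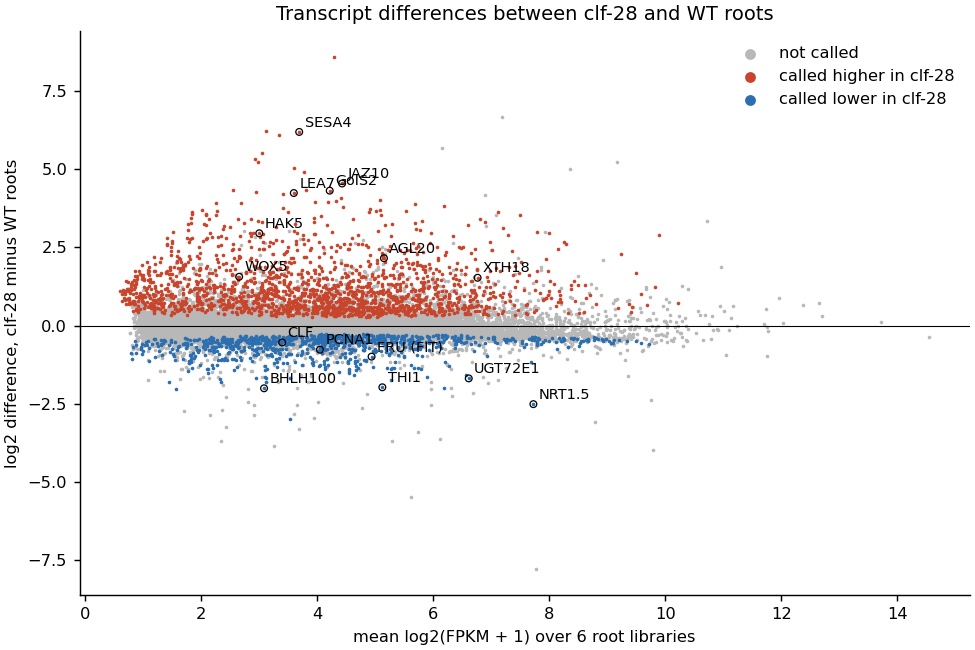
Difference between clf-28 and WT roots (vertical axis, log2 of FPKM + 1, clf-28 minus WT) against the mean level over the 6 root libraries (horizontal axis, log2 of FPKM + 1), 1 point per tested line, with lines called higher and lower in colour. The 1776 lines called higher reach larger differences than the 888 called lower.

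The 15 largest rises among genes with an annotated symbol, with groups that did not overlap, came from several classes. SESA2, SESA4, SESA3 and CRU3 encode seed storage proteins, and JAZ8 and JAZ10 repress jasmonate signalling. GolS2 makes galactinol, LEA7 is a late embryogenesis abundant protein, and FAMT methylates farnesoic acid. ABR1 and RRTF1 are AP2/ERF transcription factors, HSFA6B is a heat shock factor, GSTU5 a tau glutathione transferase and BGLU24 a beta-glucosidase. ABR1 had 36.0, 32.0 and 31.6 FPKM in clf-28 roots, against 0.890, 0.660 and 0.744 FPKM in WT roots (log2 difference 4.28, SE 0.10, adjusted p = 8.16e-05). The calls of these 14 genes were kept, and the other gene is TPS13. TPS13, a terpene synthase gene, had a line at 1247, 156 and 295 FPKM in clf-28 roots that was listed at 0 in all WT roots, but the gene is split over lines and its other line was at 24.04 to 25.3 FPKM in clf-28 roots against 2.00 to 3.79 in WT roots.

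Genes that abscisic acid and drying induce in seedlings were higher in clf-28 roots for many members of their list. Of 27 list genes 19 were tested, and 12 were higher and none lower, with a median log2 difference over the 19 of 0.99, beside -0.03 over all lines. LEA7 had 59.5, 46.7 and 49.8 FPKM in clf-28 roots, against 1.11, 1.55 and 3.03 FPKM in WT roots (log2 difference 4.24, SE 0.25, adjusted p = 0.000576). LEA4-5, of the same protein class, had 17.7, 19.6 and 20.7 FPKM in clf-28 roots, against 1.29, 0.533 and 0.945 FPKM in WT roots. LTI78 (RD29A), a classical marker of cold and drought, had 173, 158 and 158 FPKM in clf-28 roots, against 7.71, 12.5 and 17.8 FPKM in WT roots. For each of these 3 genes the lowest clf-28 library lay far above the highest WT library. LTI78 differed by 3.65 (SE 0.27, adjusted p = 0.00119) and LEA4-5 by 3.42 (SE 0.17, adjusted p = 0.00033).

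The promoters of the list's called genes were read for ACGTGNC, a form of the abscisic acid response element, in the 250 bases before the annotated start, both strands. The 3 promoters that held it more than once are shown, from the TAIR10.1 genome and annotation, 5′ to 3′ on the gene's own strand, with each match on either strand in capitals. LEA7 lies on the plus strand of chromosome 1 (19619474 to 19619723 for the window), LEA4-5 on the minus strand of chromosome 5 (2090431 to 2090680) and LTI65 (RD29B) on the plus strand of chromosome 5 (21236771 to 21237020).
LEA4-5: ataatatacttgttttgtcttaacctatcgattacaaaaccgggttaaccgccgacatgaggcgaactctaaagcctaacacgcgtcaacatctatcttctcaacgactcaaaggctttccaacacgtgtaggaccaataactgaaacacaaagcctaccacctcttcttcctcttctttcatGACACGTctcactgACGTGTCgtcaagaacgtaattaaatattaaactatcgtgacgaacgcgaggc
LEA7: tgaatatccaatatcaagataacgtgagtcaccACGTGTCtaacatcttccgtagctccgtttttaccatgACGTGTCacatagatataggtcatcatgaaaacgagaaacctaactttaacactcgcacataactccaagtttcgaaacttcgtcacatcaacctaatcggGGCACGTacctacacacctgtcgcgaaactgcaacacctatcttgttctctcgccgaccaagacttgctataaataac
LTI65: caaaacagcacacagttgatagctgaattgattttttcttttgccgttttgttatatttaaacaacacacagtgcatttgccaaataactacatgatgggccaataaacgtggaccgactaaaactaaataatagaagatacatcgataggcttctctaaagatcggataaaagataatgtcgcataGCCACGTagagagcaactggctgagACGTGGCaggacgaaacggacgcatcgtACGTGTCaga
The matches began 217, 179 and 78 bases before the start in LEA7, 67 and 53 in LEA4-5, and 63, 38 and 10 in LTI65. In all, 6 of the 12 promoters held a match (50.0%), the others being those of HAI2, HAB1 and RD26 with 1 match each. The list's uncalled genes were not counted as a set, so this share cannot be tied to the rise. Over the genome set, ACGTGNC was in 17.4% of promoters of genes called at least 2-fold higher, 14.8% of all called higher, 9.62% of those called lower, and 9.53% of the 17392 genes with a promoter. CACGTG, the G-box, which can overlap it, was in 14.8%, 11.9%, 6.61% and 7.41% of the same sets. AACCCTA, a motif common in ribosomal protein gene promoters, was in 3.96%, 2.79%, 7.81% and 5.15%. TTGACC, a form of the W-box that WRKY factors bind, was in 15.7%, 15.5%, 10.7% and 12.3%, and GAGAGA, a GA repeat linked to Polycomb recruitment, in 16.5%, 16.0%, 19.4% and 19%. A match is a run of letters and no evidence of binding.

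LTI65 itself was weakly expressed, at 2.02, 1.70 and 1.69 FPKM in clf-28 roots, against 0.855, 0.246 and 0.223 FPKM in WT roots (log2 difference 0.99, adjusted p = 0.0234). The list's protein phosphatases of the PP2C class, which hold the pathway back, rose too. HAI1 had 39.2, 43.3 and 43.3 FPKM in clf-28 roots, against 7.32, 2.92 and 4.59 FPKM in WT roots (log2 difference 2.92), and HAI2, HAB1 and ABI1 differed by 1.52, 0.86 and 0.57. The dehydrin gene ERD10 had 883, 621 and 658 FPKM in clf-28 roots, against 63.7, 85.0 and 135 FPKM in WT roots (log2 difference 2.97, adjusted p = 0.00284), on a line of a gene split over several. RD26, a NAC factor, was at 49.8, 57.7 and 55.15 FPKM in clf-28 roots and 20.6, 14.2 and 15.2 FPKM in WT roots, and ABF3, a bZIP factor of the pathway, was 0.79 higher. NCED3, whose enzyme makes the first committed step of abscisic acid synthesis, was at 23.0, 24.8 and 25.1 FPKM in clf-28 roots and 11.1, 7.89 and 16.0 FPKM in WT roots (log2 difference 1.05, adjusted p = 0.0369). RAB18, P5CS1 and ABI5, further targets of the hormone, differed by 0.26, 0.41 and 0.18 and did not pass the test.

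In this list the calls of LEA7, LEA4-5, LTI78, ERD10, HAI1, HAI2, HAB1, RD26 and ABF3 were kept. ABI1 lost its call without clf-28 replicate 2, clf-28 replicate 3 or WT replicate 2, LTI65 without any library other than WT replicate 1, and NCED3 without any library other than WT replicate 3. The list's changes were larger in shoots. In the joint fit of 11 root and shoot libraries 17 of the 19 were higher in clf-28 shoots than in WT shoots (12.4% of all lines were higher there and 8.73% lower), and 14 had a lower difference in roots than in shoots, such as LTI65 (roots minus shoots -3.91, adjusted p = 4.72e-05).

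Galactinol and raffinose, sugars that plants make when dry or cold, have their own synthases, and 3 of 5 tested genes were higher. GolS2 had 81.6, 82.3 and 82.3 FPKM in clf-28 roots, against 1.11, 3.35 and 6.89 FPKM in WT roots (log2 difference 4.32, SE 0.46, adjusted p = 0.00335). GolS4 had 90.1, 93.9 and 91.8 FPKM in clf-28 roots, against 13.9, 14.7 and 16.15 FPKM in WT roots (log2 difference 2.55, SE 0.08). The raffinose synthase gene SIP1 (RS5, AT5G40390) differed by 1.4. All 3 calls were kept, and GolS1 (0.68, adjusted p = 0.129) and GolS3 (0.59, adjusted p = 0.154) did not pass. All 5 were called higher without WT replicate 1. They were also all higher in clf-28 shoots than in WT shoots, with a median of 2.56 there, against 1.4 in roots. The GolS4 difference was larger in roots than in shoots by 1.82 (adjusted p = 0.000276), and those of SIP1 and GolS3 were smaller in roots (roots minus shoots -1.16 and -2.32, adjusted p = 0.00753 and 0.00215).

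**Figure D2:**
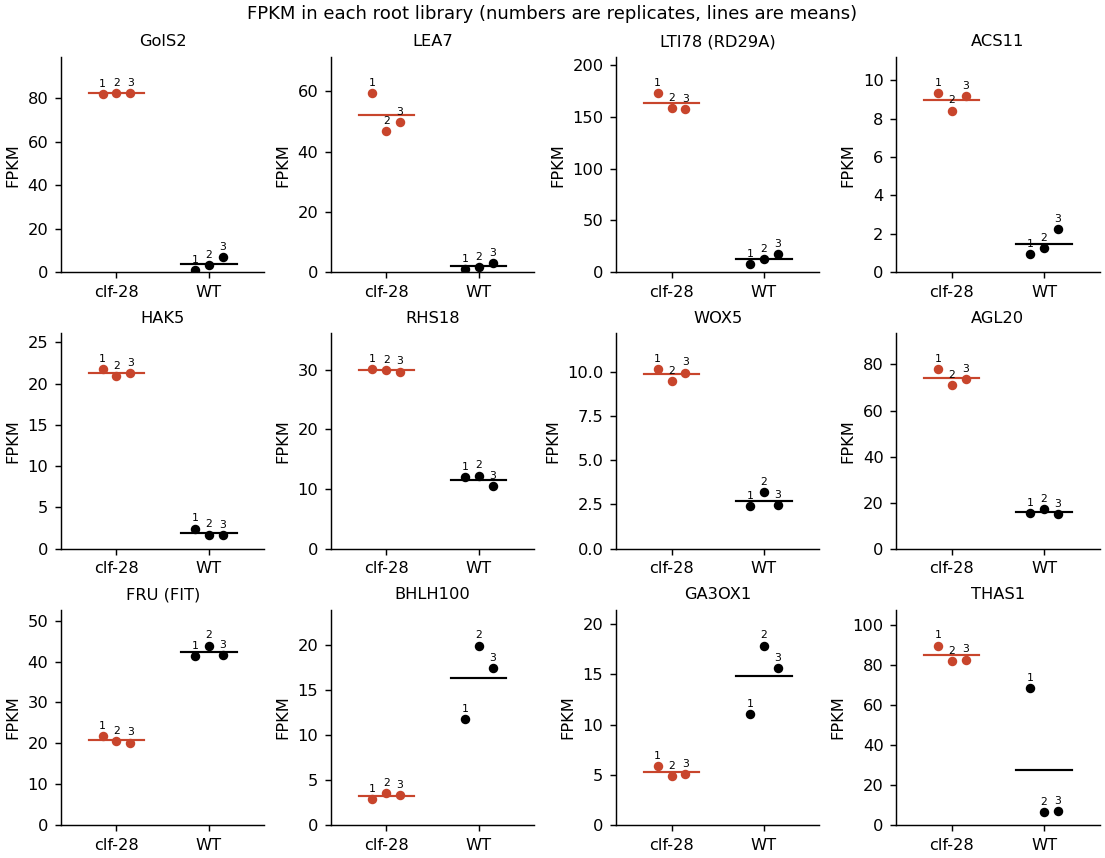
FPKM in each clf-28 library (left in each panel) and each WT library (right) for 12 genes named in the text, with numbered points for replicates and a line at the group mean. GolS2, LEA7, LTI78, ACS11, HAK5, RHS18, WOX5 and AGL20 were called higher in clf-28 roots, FRU, BHLH100 and GA3OX1 lower, and THAS1 was not called, with WT replicate 1 at 68.5 FPKM beside 6.53 and 6.90 FPKM.

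The gene families counted here and below were matched on annotated names, so they can lack members. Of 67 AP2/ERF transcription factors so matched 24 were higher (35.8%, beside 9.11% of all lines) and none lower (beside 4.55%), with a median log2 difference of 0.51. Besides ABR1, DDF2 (ddf2 in the annotation), of the subfamily of cold and drought regulators, had 8.43, 11.3 and 10.7 FPKM in clf-28 roots, against 0, 0.0546 and 0.406 FPKM in WT roots (log2 difference 3.28, adjusted p = 0.000401). Of 53 WRKY factors, known for roles in defence, 14 were higher (26.4%) and 1 lower. WRKY40 had 127, 116 and 116 FPKM in clf-28 roots, against 15.4, 6.73 and 15.3 FPKM in WT roots, a log2 difference of 3.24, and WRKY22 and WRKY38 differed by 2.43 and 2.22. In shoots WRKY22 was lower in clf-28 than in WT (-0.84, adjusted p = 0.00865). Of 74 MYB factors 23 were higher (31.1%) and 5 lower (6.76%), among them MYB108 (2.05) and MYB78 (2.01). Of 70 NAC factors 14 were higher and 1 lower, and of 86 bHLH factors 15 were higher (17.4%) and 9 lower (10.5%). Leaving out WT replicate 1, when 23.6% of all lines were higher and 17.9% lower, gave the AP2/ERF factors 39 higher and 10 lower, the WRKY factors 30 and 2, the MYB factors 30 and 9, the NAC factors 31 and 8, and the bHLH factors 35 and 12. BHLH92 had 6.52, 5.35 and 5.00 FPKM in clf-28 roots, against 0.194, 0.0310 and 0.0483 FPKM in WT roots. The calls of the factors given here with values were kept.

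Of 13 MAP kinase kinase kinases 8 were higher and none lower, among them MAPKKK14 (2.17), MAPKKK18 (1.81) and MAPKKK21 (1.58). For this and the next families the shares over all lines were 9.11% higher and 4.55% lower. Of 44 calmodulin-like and other EF-hand proteins, which bind calcium, 11 were higher, and of 26 plant U-box ubiquitin ligases 6. The flagellin receptor gene FLS2 (AT5G46330) was at 2.43, 2.62 and 2.85 FPKM in clf-28 roots and 0.598, 0.723 and 0.718 FPKM in WT roots (log2 difference 1.11), while its class of leucine-rich repeat kinases had 6 higher and 9 lower of 129, but 12 and 6 with median-of-ratios scaling, and 33 and 39 without WT replicate 1. Of 35 MATE efflux carriers, which export small molecules, 13 were higher and 4 lower. The MATE gene AT5G52050 had 64.0, 70.5 and 71.7 FPKM in clf-28 roots, against 0.532, 0.769 and 2.53 FPKM in WT roots (log2 difference 5.04, SE 0.31, adjusted p = 0.00068), and in shoots it differed by 0.19. Of 10 tau glutathione transferases 4 were higher, and these 4, GSTU3, GSTU4, GSTU5 and GSTU6, stand next to each other on chromosome 2. Of 108 cytochromes P450 19 were higher (17.6%) and 6 lower (5.56%, near the share of all lines), and of 18 beta-glucosidases 6 were higher. All 9 tested jasmonate genes were called higher, and of 10 JAZ genes 8 were. The EF-hand proteins had, without WT replicate 1, 21 higher and 2 lower, the U-box ligases 14 higher, the MATE carriers 21 higher and 5 lower, the tau glutathione transferases 8 higher, and the cytochromes P450 54 higher and 14 lower. Those counts stand beside 23.6% of all lines higher and 17.9% lower.

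Ethylene synthesis genes were higher for 5 of 6 tested members and lower for none. ACS enzymes make the ethylene precursor ACC. ACS11 had 9.35, 8.43 and 9.16 FPKM in clf-28 roots, against 0.959, 1.25 and 2.26 FPKM in WT roots (log2 difference 2.04, SE 0.20, adjusted p = 0.0026). ACS6 had 110, 116 and 114 FPKM in clf-28 roots, against 39.8, 23.5 and 43.1 FPKM in WT roots (log2 difference 1.70). ACS7 (1.4) and ACS2 (0.54) were also called. In shoots ACS11 (-1.19) and ACS7 (-1.36) were lower in clf-28 than in WT and ACS2 was higher (2.41), and the difference between the organs was called for these 3. The calls of ACS11 and ACS6 were kept. Those of ACS7 and ACS2 were lost without any 1 clf-28 library, and that of ACS2 also without WT replicate 2.

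Gibberellin is made active by GA3OX1 and inactivated by GA2OX enzymes, and 1 of 7 tested genes of its metabolism was higher and 1 lower. GA2OX6 had 94.4, 113 and 115 FPKM in clf-28 roots, against 19.1, 26.8 and 37.9 FPKM in WT roots (log2 difference 1.95, SE 0.25, adjusted p = 0.00626). GA3OX1 had 5.84, 4.90 and 5.07 FPKM in clf-28 roots, against 11.02, 17.9 and 15.6 FPKM in WT roots (log2 difference -1.31, SE 0.18, adjusted p = 0.00814). Both calls were kept, and the groups did not overlap for either gene. GA2OX7, which is outside that list and inactivates gibberellin precursors, had 7.15, 7.35 and 6.75 FPKM in clf-28 roots, against 0, 0.0419 and 0 FPKM in WT roots (log2 difference 3.00, adjusted p = 9.69e-05), a kept call. It passed the filter only through its clf-28 values, so only a rise could be called. Among 11 tested auxin response genes, WES1 (GH3.5) was higher by 0.54 and kept its call, IAA30 was higher by 0.41, and BRU6 (GH3.2) and DFL1 (GH3.6) differed by -0.78 and -0.43. GH3 enzymes conjugate auxin or other hormones to amino acids. Of 18 tested cytokinin genes CKX6 (0.52) and CKX7 (0.62), which break the hormone down, were higher, and the response regulator gene ARR9 was lower (-0.46). Of 9 tested genes of lateral root initiation MAKR4 was lower (-0.74). The calls of BRU6, DFL1, IAA30, CKX6, CKX7, ARR9 and MAKR4 were each lost without any 1 clf-28 library. The gibberellin list had 2 higher and 2 lower without WT replicate 1, the auxin list 5 and 3, the cytokinin list 6 and 1, and the lateral root list 1 and 2. In that setting 23.6% of all lines were higher and 17.9% lower. The gibberellin and lateral root counts are near these shares.

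Indole glucosinolates are sulfur-containing defence compounds made from tryptophan, and their synthesis genes were called higher for 9 of 13 members and lower for none, with a median log2 difference of 0.72. CYP79B2, which takes the first step from tryptophan, had 195, 201 and 204 FPKM in clf-28 roots, against 97.5, 58.0 and 71.4 FPKM in WT roots (log2 difference 1.42, SE 0.19, adjusted p = 0.0076). UGT74B1, a later glucosyltransferase, differed by 1.32. These 2 calls were kept. CYP79B3 (1.05), CYP83B1 (0.97), SOT16 (1.07), SUR1 (0.56), CYP91A2 (CYP81F1, 0.68), CYP81F3 (0.72) and the regulator MYB122 (1.18) were also called, and each lost its call without at least 1 clf-28 library. The list held 3, 2 and 2 calls without clf-28 replicates 1, 2 and 3, 6 and 4 without WT replicates 2 and 3, and 12 without WT replicate 1. MYB51, another regulator of the pathway, had 47.2, 50.5 and 52.7 FPKM in clf-28 roots, against 42.7, 34.9 and 82.0 FPKM in WT roots, and the groups overlapped.

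Aliphatic glucosinolates, made from methionine, gave 1 lower call among 10 tested genes. Their regulator MYB28 had 7.62, 7.34 and 6.82 FPKM in clf-28 roots, against 10.9, 16.9 and 15.9 FPKM in WT roots (log2 difference -0.89, adjusted p = 0.0229), a call lost without any library other than WT replicate 1. Without WT replicate 1, 8 of the 10 were lower and 1 higher.

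The general phenylpropanoid pathway, which feeds lignin, suberin and flavonoids, had 4 of 11 tested list genes higher, and they were its first enzymes. The count without WT replicate 1 was 5 higher and 4 lower. PAL1 had 324, 340 and 342 FPKM in clf-28 roots, against 192, 163 and 184 FPKM in WT roots (log2 difference 0.90, SE 0.10, adjusted p = 0.00376). C4H had 499, 498.5 and 493 FPKM in clf-28 roots, against 272, 203.5 and 194 FPKM in WT roots (log2 difference 1.17). PAL2 (0.94) and 4CL1 (1.03) were also higher, and for all 4 the difference was larger in roots than in shoots. The calls of PAL1, PAL2 and C4H were kept, and that of 4CL1 was lost without any 1 clf-28 library or WT replicate 2. TT4, the first enzyme of the flavonoid branch, had 15.05, 14.3 and 15.6 FPKM in clf-28 roots, against 5.90, 28.5 and 25.4 FPKM in WT roots, and was not called.

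Of 9 tested genes of camalexin synthesis and immunity 2 were higher, and both calls were kept. The count was 7 higher without WT replicate 1. MYB15, a regulator of lignin in immunity and of cold genes, had 117, 113 and 112.5 FPKM in clf-28 roots, against 6.46, 5.92 and 13.2 FPKM in WT roots (log2 difference 3.68, SE 0.28, adjusted p = 0.00119). EDS5, which exports a salicylic acid precursor from the chloroplast, differed by 1.69 (adjusted p = 0.00406).

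Some groups of metabolic genes turned on WT replicate 1. The thalianol and marneral triterpene clusters, with 6 genes, gave no call in limma, 2 genes higher at an unadjusted p under 0.05, and 6 of 6 higher without WT replicate 1. THAS1, the thalianol synthase gene, had 89.8, 82.2 and 82.8 FPKM in clf-28 roots, against 68.5, 6.53 and 6.90 FPKM in WT roots (log2 difference 2.42, adjusted p = 0.129), and without WT replicate 1 the difference was 3.48. MRN1, the marneral synthase gene, had 36.2, 32.1 and 31.5 FPKM in clf-28 roots, against 75.1, 0.314 and 0.268 FPKM in WT roots. Low-oxygen genes moved the other way in that library. ADH1, alcohol dehydrogenase, had 210, 199 and 202 FPKM in clf-28 roots, against 4.21, 84.0 and 77.1 FPKM in WT roots, and SUS4, a sucrose synthase, had 54.4, 56.3 and 56.9 FPKM in clf-28 roots, against 3.44, 32.9 and 33.6 FPKM in WT roots. Of 11 low-oxygen genes ERF71 (HRE2) alone was called (0.98, adjusted p = 0.0441), and it lost its call without any library other than WT replicate 1. Without that library the low-oxygen list had 4 higher and 2 lower, and its median was 0.07, against 0.98 with it. Of 5 tested genes of ER bodies, beta-glucosidase stores of root and leaf cells, none was called in limma, 3 were higher at an unadjusted p under 0.05, and 4 were called higher without WT replicate 1.

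**Figure D3:**
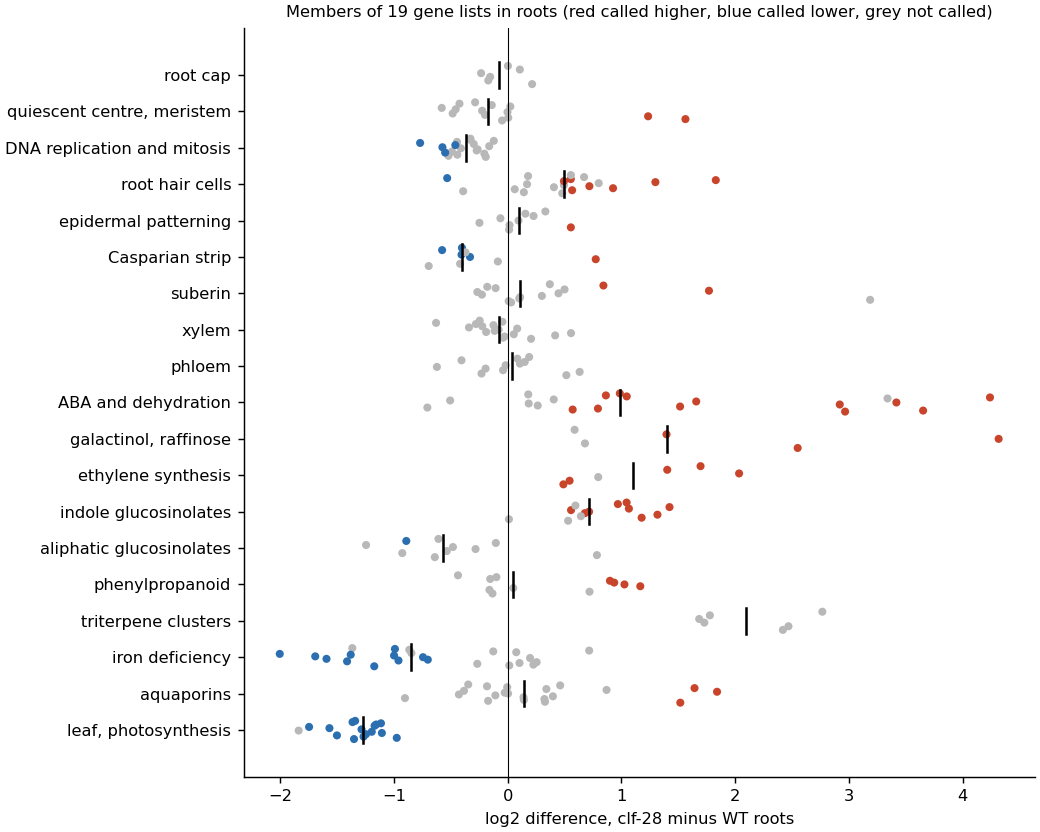
Difference between clf-28 and WT roots (horizontal axis, log2 of FPKM + 1, clf-28 minus WT) for every tested member of 19 gene lists, 1 row per list and 1 point per gene, red where called higher, blue where called lower and grey where not called, with a black bar at the list's median. The abscisic acid list has 12 of 19 members called higher, the iron list 11 of 23 and the leaf list 15 of 16 called lower, and the triterpene list lies wholly above 0 with no member called.

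Among the root cell type lists, calls were most frequent for root hair genes (8 of 19) and Casparian strip genes (5 of 9), beside 13.7% of all lines. In bulk tissue fewer cells of a type and less RNA per cell cannot be told apart. Among 14 regulators of the quiescent centre and meristem 2 were higher and none lower. WOX5, which marks and maintains the quiescent centre, had 10.14, 9.47 and 9.95 FPKM in clf-28 roots, against 2.39, 3.2 and 2.47 FPKM in WT roots (log2 difference 1.56, SE 0.11, adjusted p = 0.00096). AT5G07310 (ERF115), which drives division of quiescent cells, had 1.95, 1.66 and 2.88 FPKM in clf-28 roots, against 0.425, 0.287 and 0.274 FPKM in WT roots (log2 difference 1.24). Both calls were kept, and the WOX5 difference was 1.76 larger than in shoots (adjusted p = 0.000555). PLT1, a meristem regulator, had 3.22, 3.33 and 3.14 FPKM in clf-28 roots, against 2.27, 6.24 and 6.71 FPKM in WT roots, and was called (-0.82) without WT replicate 1 alone. SCR (-0.29), SHR (-0.46) and BBM (-0.05) were not called with all 6 libraries. The list had 6 lower and 2 higher without WT replicate 1, with SHR (adjusted p = 0.0103) and MGP (adjusted p = 0.0168), a zinc finger gene, among the lower. Of 6 root cap genes limma called none, and none had an unadjusted p under 0.05, but without WT replicate 1 there were 1 higher and 2 lower. In that setting 23.6% of all lines were higher and 17.9% lower. Counts this small among 6 genes are near those shares and are no result about the root cap. The 2 lower were FEZ and SMB, NAC factors of the root cap, at -0.41 and -0.51 (adjusted p = 0.0107 and 0.00607).

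Root hair genes were called higher for 7 of 19 members and lower for 1. RHS18, a root-hair-specific peroxidase, had 30.1, 29.9 and 29.7 FPKM in clf-28 roots, against 12.02, 12.2 and 10.5 FPKM in WT roots (log2 difference 1.3, SE 0.08, adjusted p = 0.000639). G3Pp2 (RHS15), a glycerol-3-phosphate permease, differed by 0.72, and these 2 calls were kept. RSL4, the bHLH factor that sets hair length, had 13.7, 13.6 and 14.97 FPKM in clf-28 roots, against 8.22, 9.60 and 9.76 FPKM in WT roots (log2 difference 0.57, adjusted p = 0.0148). RSL2, a related factor, was lower, with 4.69, 3.66 and 3.90 FPKM in clf-28 roots, against 6.56, 6.37 and 6.05 FPKM in WT roots (log2 difference -0.53, adjusted p = 0.0262). RHS12 (0.49), EXPA18 (0.56), PRP3 (0.93) and PRP1 (1.83), genes of the hair cell wall, were higher. The calls of RSL4, RHS12, EXPA18, PRP3 and PRP1 were lost without any 1 clf-28 library, and that of RSL2 without any library other than clf-28 replicate 1 or WT replicate 1. The upstream factor RHD6 (0.06), the oxidase gene RHD2 (0.41) and LRX1 (0.56) were not called.

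Casparian strip genes were lower for 4 of 9 tested members and higher for 1. CASP1, a membrane scaffold of the strip, had 179.5, 199 and 204 FPKM in clf-28 roots, against 263, 262 and 247 FPKM in WT roots (log2 difference -0.41, adjusted p = 0.0408). CASP2 (-0.40), the regulator MYB36 (-0.33) and the kinase gene AT1G61590 (SGN1, -0.58) were lower, and the oxidase gene RBOH F was higher (0.77, adjusted p = 0.0487). None of these 5 calls was kept, and without any 1 clf-28 library the list gave no call in limma. In shoots 6 of the 9 were lower. Of 15 tested suberin genes 2 were higher, and 9 without WT replicate 1, with a median of 0.47 against 0.11 with it. FAR1 (AT5G22500), which makes fatty alcohols, had 22.0, 21.7 and 22.5 FPKM in clf-28 roots, against 11.4, 12.8 and 11.4 FPKM in WT roots (log2 difference 0.84, adjusted p = 0.002), a kept call. MYB41, a suberin regulator, differed by 1.77 (adjusted p = 0.0191), a call lost without any library other than WT replicate 1. Of 17 xylem and 12 phloem genes limma called none. At an unadjusted p under 0.05 there was 1 xylem gene higher, and 1 phloem gene higher and 1 lower. Without WT replicate 1 there were 6 xylem genes higher and 1 lower, and 5 phloem genes higher and 1 lower. The shares over all lines in that setting were 23.6% higher and 17.9% lower.

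Iron deficiency genes were lower in clf-28 roots, with 11 of 23 tested members lower, none higher, and a median log2 difference of -0.85. The count without WT replicate 1 was 16 lower and 3 higher. Roots of iron-starved plants switch on the bHLH factor FRU (FIT), which works with the bHLH factors of subgroup Ib to induce iron reduction and uptake. FRU had 21.7, 20.5 and 20.2 FPKM in clf-28 roots, against 41.3, 43.9 and 41.65 FPKM in WT roots (log2 difference -0.99, SE 0.07, adjusted p = 0.00099). BHLH100, of subgroup Ib, had 2.86, 3.57 and 3.34 FPKM in clf-28 roots, against 11.75, 19.95 and 17.45 FPKM in WT roots (log2 difference -2.00, SE 0.20, adjusted p = 0.00274). Its relatives bHLH38 (-1.41), bHLH39 (-0.74) and BHLH101 (-0.70) were lower as well. For FRU and BHLH100 every clf-28 library lay below every WT library.

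Genes that act with or below these factors followed the same direction where called. MYB10, a regulator of growth at low iron, had 1.71, 1.76 and 1.66 FPKM in clf-28 roots, against 5.30, 6.97 and 5.98 FPKM in WT roots (log2 difference -1.38), on a line of a split gene. AT3G12900 (S8H), which makes the iron-mobilising coumarin fraxetin, differed by -1.69 (SE 0.12, adjusted p = 0.00108), and CYP82C4, which oxidises fraxetin to sideretin, by -1.59 (adjusted p = 0.0499). NAS1, which makes the metal chelator nicotianamine, had 51.1, 45.8 and 48.0 FPKM in clf-28 roots, against 113.5, 112 and 105 FPKM in WT roots (log2 difference -1.17), and NAS4 differed by -0.96. FRD3, which loads citrate into the xylem, had 13.55, 14.1 and 14.2 FPKM in clf-28 roots, against 34.3, 27.3 and 25.7 FPKM in WT roots (log2 difference -1.0). The calls of FRU, BHLH100, bHLH38, bHLH39, MYB10, AT3G12900, NAS1 and FRD3 were kept. Those of BHLH101 and NAS4 were lost without any 1 clf-28 library, and that of CYP82C4 without any library other than WT replicate 1.

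The uptake genes themselves were not called with all 6 libraries. The iron transporter gene IRT1 had 217, 207 and 214 FPKM in clf-28 roots, against 253, 492.5 and 452 FPKM in WT roots (log2 difference -0.85, adjusted p = 0.089), and it was called without WT replicate 1 (-1.15). The reductase gene FRO2 had 34.9, 32.9 and 32.2 FPKM in clf-28 roots, against 41.15, 136 and 119 FPKM in WT roots (log2 difference -1.37, adjusted p = 0.104), and it was called without WT replicate 1 (-1.90). In both, WT replicate 1 lay just above the clf-28 libraries. IRT2, a relative of IRT1, differed by 0.72 (adjusted p = 0.0892). In shoots 5 of the 23 were higher in clf-28 than in WT and 3 lower, and for 7 the difference was lower in roots than in shoots. BHLH100 differed by -2.00 in roots and 1.14 in shoots (roots minus shoots -3.14, adjusted p = 0.000245), and bHLH38 by -1.41 and 1.08 (roots minus shoots -2.49, adjusted p = 0.000181).

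**Figure D4:**
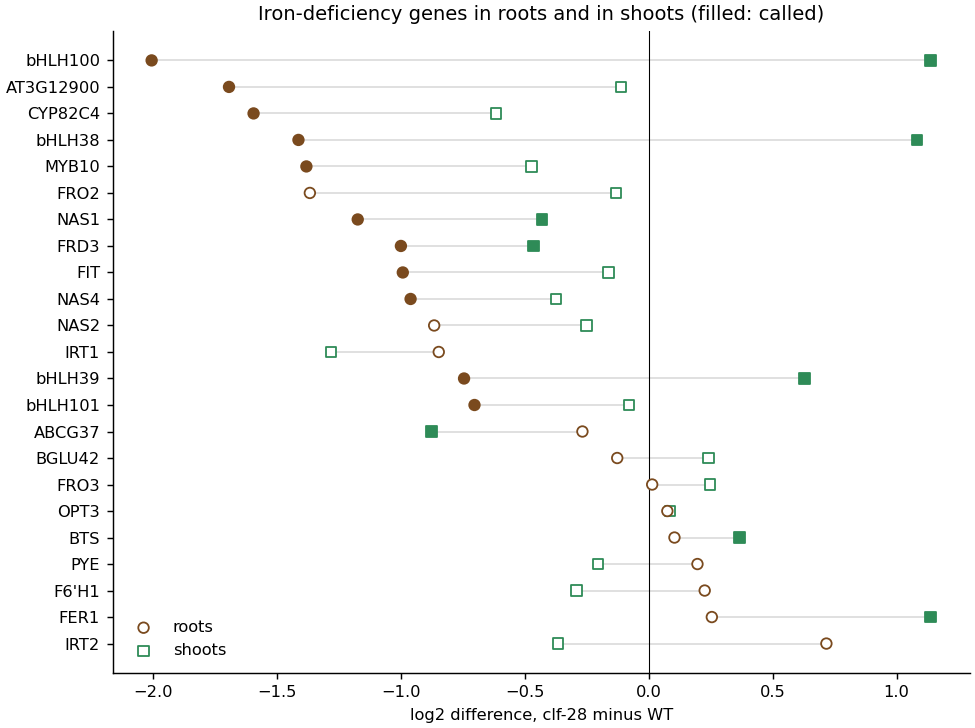
Difference between clf-28 and WT (horizontal axis, log2 of FPKM + 1, clf-28 minus WT) for the 23 tested genes of the iron deficiency list, with circles for roots, squares for shoots and filled symbols where called. BHLH100, bHLH38 and bHLH39 lie below 0 in roots and above 0 in shoots, while FRU (drawn as FIT) lies at -0.99 in roots and -0.16 in shoots.

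Among other transport genes a few single members stood out. HAK5, the high-affinity potassium transporter gene that potassium starvation induces, had 21.7, 20.9 and 21.3 FPKM in clf-28 roots, against 2.42, 1.68 and 1.61 FPKM in WT roots (log2 difference 2.95, SE 0.12, adjusted p = 0.000214), and in shoots it differed by -0.01. SULTR2;1, a sulfate transporter gene of vascular cells, had 1.83, 1.54 and 1.585 FPKM in clf-28 roots, against 6.245, 6.02 and 5.53 FPKM in WT roots (log2 difference -1.39, adjusted p = 0.000874). RNS1, a ribonuclease gene of the phosphate starvation list, had 13.65, 17.2 and 18.75 FPKM in clf-28 roots, against 2.104, 2.07 and 2.02 FPKM in WT roots (log2 difference 2.51, adjusted p = 0.000355). These 3 calls were kept. Of the other 13 tested phosphate genes PHT1;4 alone was called (-0.32, adjusted p = 0.049), and it lost its call without any library other than WT replicate 1. Of 12 tested sulfur genes APR1 was higher (0.79, adjusted p = 0.0351), a call lost without any library other than WT replicate 1. The sulfur list had 7 higher and 1 lower without WT replicate 1, and the phosphate list 3 higher and 5 lower. Over all lines 23.6% were higher and 17.9% lower in that setting.

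Aquaporins, the water channels, were called higher for 3 of 21 members and lower for none, but 9 were higher and 5 lower without WT replicate 1. RD28 (PIP2;3) had 246, 268 and 251 FPKM in clf-28 roots, against 83.5, 64.9 and 64.5 FPKM in WT roots (log2 difference 1.84, adjusted p = 0.000891), and PIP2;5 and PIP1;4 differed by 1.64 and 1.52. The calls of RD28 and PIP2;5 were kept, and that of PIP1;4 was lost without any 1 clf-28 library or WT replicate 2. The nitrate list had 2 of 8 tested genes lower, and 3 lower and 2 higher without WT replicate 1. When that library was left out, 23.6% of all lines were higher and 17.9% lower. NRT1.5, a xylem loader of nitrate, had 99.4, 82.1 and 83.0 FPKM in clf-28 roots, against 706, 479 and 381 FPKM in WT roots (log2 difference -2.51), and AMT1;3, an ammonium transporter gene, differed by -1.38. The NRT1.5 call was kept, and that of AMT1;3 was lost without any 1 clf-28 library or WT replicate 2.

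Cell wall families changed in both directions. Of 20 expansins, which loosen the wall, 3 were higher and 4 lower. EXLA1 had 210, 213 and 208 FPKM in clf-28 roots, against 29.6, 30.4 and 56.4 FPKM in WT roots (log2 difference 2.47), EXLA2 differed by 2.56, and EXPA14 by -0.83. Of 20 xyloglucan-modifying XTH enzymes 5 were higher and 2 lower, and XTH18 had 184, 185 and 183 FPKM in clf-28 roots, against 62.6, 66.6 and 60.2 FPKM in WT roots (log2 difference 1.53). Of 50 peroxidases 9 were higher and 2 lower, among them PA2 (2.27). Of 32 SAUR proteins, linked to auxin-driven elongation, 4 were higher and 7 lower. Expansins had 4 higher and 7 lower without WT replicate 1, the XTH enzymes 9 and 4, the peroxidases 23 and 10, and the SAUR proteins 7 and 12. Over all lines 23.6% were higher and 17.9% lower in that setting, against 9.11% and 4.55% with all 6 libraries.

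Genes of cell proliferation and protein synthesis were on the lower side. Of 18 genes of DNA replication and mitosis 4 were lower and none higher, with a median of -0.37. PCNA1, the replication clamp gene, had 11.9, 10.9 and 12.3 FPKM in clf-28 roots, against 17.2, 22.5 and 22.6 FPKM in WT roots (log2 difference -0.77, adjusted p = 0.0147). The cyclin gene CYCB1;4 (-0.57), the kinase gene CDKB2;1 (-0.46) and SYP111 (KNOLLE, -0.55), which builds the cell plate, were also lower. None of the 4 calls was kept, and without clf-28 replicate 2 or 3 the list gave no call in limma, while without WT replicate 1 it gave 17 lower. In shoots 15 of the 18 were lower.

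Ribosomal proteins were called lower for 67 of 293 members (22.9%) and higher for none, beside 4.55% lower over all lines, with a median of -0.37. AT2G32060, a protein of the small cytosolic subunit, had 234, 260 and 265 FPKM in clf-28 roots, against 398, 408 and 410 FPKM in WT roots (log2 difference -0.68, adjusted p = 0.00802). Without WT replicate 1 there were 221 lower and 4 higher, and with median-of-ratios scaling 57 lower. Of 12 TCP-1 chaperonins, which fold cytosolic proteins, 4 were lower, and 2 with median-of-ratios scaling. Chaperonins called lower numbered 8 without WT replicate 1. Of 46 histones 7 were lower and 1 higher, and without WT replicate 1, 15 and 2. AT5G10390, a histone H3 gene, had 17.45, 18.1 and 18.1 FPKM in clf-28 roots, against 30.2, 30.5 and 34.04 FPKM in WT roots (log2 difference -0.79, adjusted p = 0.0025), a kept call.

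Leaf and photosynthesis genes, from cells that a root sample should lack, were lower in clf-28 roots for 15 of 16 tested members. Their summed level was 381, 484 and 464 FPKM in clf-28 roots, against 1773, 1092 and 859 FPKM in WT roots. LHCA4, an antenna protein of photosystem I, had 46.4, 60.4 and 56.9 FPKM in clf-28 roots, against 198, 165 and 132 FPKM in WT roots (log2 difference -1.57, adjusted p = 0.00442). The calls of LHCA4, LHCB5 (-1.36), PSAF (-1.17) and LHCB3 (-1.75) were kept. Without WT replicate 1 the count was 15 and the median -1.08, against -1.28 with it, while without any 1 clf-28 library it was 4, and without WT replicate 2 it was 5. In shoots the list's median difference was -0.02, and for 9 genes the difference was lower in roots than in shoots. Of all lines called lower, 178 of 888 had a WT shoot mean at least 10 times the WT root mean, beside 3.77% of all lines tested. THI1, which makes the thiazole of vitamin B1, was 1 of the largest falls, at 16.6, 16.4 and 16.8 FPKM in clf-28 roots, against 85.8, 64.1 and 57.5 FPKM in WT roots (log2 difference -1.97, adjusted p = 0.00134). UMAMIT29, a transporter gene of the amino acid exporter class, differed by -1.81, and UGT72E1, a glucosyltransferase of monolignols, by -1.69. These 3 calls were kept. The part of green tissue in these falls was not tested.

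Seed storage genes were among the largest rises. Those under 1 FPKM in all WT roots passed the filter only through their clf-28 values, so only rises could be called. SESA4, a 2S albumin gene, had 82.6, 150 and 106 FPKM in clf-28 roots, against 0.425, 0.254 and 0.927 FPKM in WT roots (log2 difference 6.20, SE 0.26, adjusted p = 0.000226). CRU3, a cruciferin gene, had 53.6, 130 and 83.2 FPKM in clf-28 roots, against 0.0635, 0.105 and 0.598 FPKM in WT roots (log2 difference 6.10). The oil body gene OLEO1 had 1.64, 7.19 and 4.66 FPKM in clf-28 roots, against 0, 0.0599 and 0.650 FPKM in WT roots, and its call (2.04, adjusted p = 0.0353) was lost without any library other than clf-28 replicate 1. The calls of SESA1, SESA2, SESA3, SESA4, SESA5, CRU3 and CRA1 were kept, and CRU2 lost its call without clf-28 replicate 3. The master regulators of seed maturation LEC1, FUS3 and ABI3 reached at most 0.3455 FPKM in clf-28 roots and were not tested.

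The same storage genes also differed between libraries of 1 label in other organs. Summed over SESA1, SESA2, SESA4, SESA5, CRA1 and CRU2, the level was 168, 321 and 226 FPKM in clf-28 roots, against 0.7, 0.4 and 3.8 FPKM in WT roots. In clf-28 shoots replicates 1 and 2 it was 210.5 and 446.5 FPKM, against 7.0, 3.2 and 2.9 FPKM in WT shoots, and in clf-28 inflorescences 144, 305 and 218 FPKM, against 10.3, 1.7 and 1.0 FPKM in WT inflorescences. In clf-28, replicate 3 labelled as shoots had 139612 FPKM, while replicate 3 labelled as siliques had 334 FPKM beside 131122 and 140331 FPKM in the other 2 clf-28 silique libraries. In clf-28 roots and clf-28 inflorescences alike, replicate 1 was lowest, replicate 3 next and replicate 2 highest. Whether RNA of seed-bearing libraries contributed to the clf-28 root values was not tested.

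**Figure D5:**
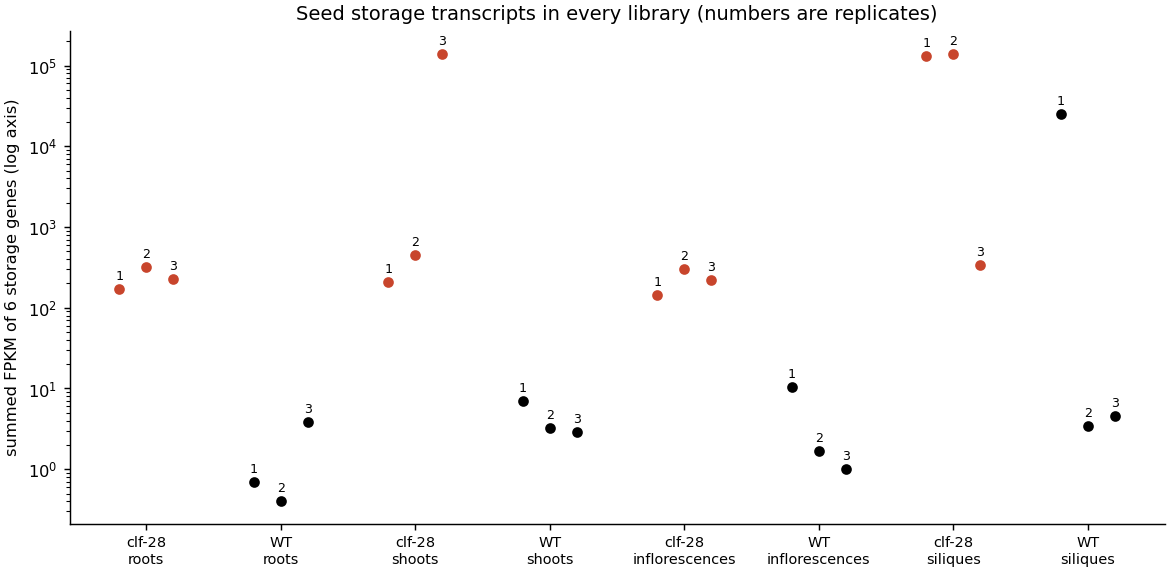
Summed FPKM of 6 seed storage genes in each of the 24 libraries (vertical axis, logarithmic), by organ, with clf-28 left of WT and numbered points for replicates. The clf-28 roots lie between 168 and 321 FPKM and the WT roots between 0.4 and 3.8 FPKM, and replicate 3 lies away from its group in both clf-28 shoots and clf-28 siliques, as replicate 1 does in WT siliques.

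Floral and flowering genes are known targets of CLF in leaves, and the floral ones were mostly silent in roots. Of 15 floral MADS-box genes and LFY 5 were tested, since 10 stayed under 1 FPKM in every root library, and 3 were higher. A gene silent in WT roots, such as AG, could be tested only through its clf-28 values, so this count leans towards rises. AG, which specifies stamens and carpels, had 2.62, 1.85 and 2.12 FPKM in clf-28 roots, against 0, 0.0944 and 0.0605 FPKM in WT roots (log2 difference 1.6, SE 0.12, adjusted p = 0.0012). In shoots AG was higher by 5.09. SEP4 differed by 1.06 and SHP1 by 0.72, and the calls of AG and SEP4 were kept, while that of SHP1 was lost without any 1 clf-28 library or WT replicate 2. Of 7 tested flowering time genes 2 were higher, and without WT replicate 1, 5 higher and 1 lower. AGL20 (SOC1), a promoter of flowering, had 77.9, 71.15 and 73.5 FPKM in clf-28 roots, against 15.6, 17.1 and 14.98 FPKM in WT roots (log2 difference 2.16, SE 0.08, adjusted p = 0.00016), a kept call. FLC, a repressor of flowering, had 18.2, 14.97 and 15.05 FPKM in clf-28 roots, against 6.70, 2.79 and 3.71 FPKM in WT roots (log2 difference 1.72, adjusted p = 0.0123), a call lost without any 1 clf-28 library. YAB2, a leaf polarity gene, had 1.46, 1.82 and 1.74 FPKM in clf-28 roots, against 0.121, 0.148 and 0.114 FPKM in WT roots (log2 difference 1.24, adjusted p = 0.00141), a kept call.

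Few genes of the Polycomb machinery were called. Of 16 components MEA alone was called, at 1.25, 1.93 and 1.72 FPKM in clf-28 roots, against 0.406, 0.450 and 0.939 FPKM in WT roots (log2 difference 0.73, adjusted p = 0.0467), on a line of a split gene, and the call was lost without any 1 clf-28 library. Leaving out WT replicate 1 gave 3 higher and 2 lower. SWN had 14.2, 13.5 and 13.3 FPKM in clf-28 roots, against 14.2, 16.2 and 15.3 FPKM in WT roots, and was not called. Of 7 tested genes that act against Polycomb, ULT1, a trithorax-group factor, was lower, with 3.84, 3.504 and 3.28 FPKM in clf-28 roots, against 6.25, 7.38 and 7.75 FPKM in WT roots (log2 difference -0.84, adjusted p = 0.00652), a kept call. The H3K27 demethylase gene AT5G46910 (JMJ13) was higher by 0.98, a call lost without any 1 clf-28 library.

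Whether the changes were the same in shoots was tested in the joint fit, from which the library labelled clf-28 shoots replicate 3 was left out. Of 20745 lines 2575 were higher in clf-28 shoots than in WT shoots (12.4%) and 1812 lower (8.73%), and the difference was larger in roots than in shoots for 1024 (4.94%) and lower for 1102 (5.31%). Of the 1776 lines higher in clf-28 roots, 683 were also higher in shoots, 102 were lower there, and for 774 the difference between the organs was called. Of the 884 lower lines in that fit, 297 were lower in shoots, 37 were higher, and for 235 the difference was called. AT1G12950 (root hair specific 2), a MATE carrier gene, had 82.7, 82.65 and 75.7 FPKM in clf-28 roots, against 3.75, 5.76 and 5.32 FPKM in WT roots (log2 difference 3.79), and in shoots it differed by 0.28. The oxidase-like gene sks9 had 13.0, 13.4 and 13.1 FPKM in clf-28 roots, against 0.775, 1.14 and 1.21 FPKM in WT roots, and in GA2OX7 the difference was 2.78 larger in roots than in shoots.

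The genes higher in clf-28 roots were not mainly those of a single WT organ. The WT mean was highest in siliques for 28.2% of them, beside 19.9% of all lines tested, and in roots for 35.9%, beside 38.3%. For lines lower in clf-28 roots it was highest in shoots for 35.2%, beside 19.9%, and in siliques for 11.9%. WT siliques here include the library whose storage genes summed to 25226 FPKM, while the other 2 had 3.4 and 4.6 FPKM.

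Called genes also lay next to each other. Of 1663 genes called higher with a mapped position, 480 (28.9%) had a neighbour called higher, beside 17.5% of all genes, and of 844 called lower 106 (12.6%) had a neighbour called lower, beside 9.16%. The longest run held 7 genes on chromosome 4, from 7731189 to 7761057 in TAIR10.1, namely TPS12, CYP71A19, TPS13, CYP71A20, AT4G13320, AT4G13330 and LRX3, of which AT4G13320 and AT4G13330 share a deposited locus. TPS12 and TPS13 are terpene synthases, CYP71A19 and CYP71A20 are cytochromes P450, and LRX3 is a wall protein. CYP71A20 had 58.6, 44.5 and 45.4 FPKM in clf-28 roots, against 12.1, 5.93 and 6.39 FPKM in WT roots (log2 difference 2.52), and LRX3 had 121, 128 and 120 FPKM in clf-28 roots, against 25.7, 33.9 and 46.3 FPKM in WT roots (log2 difference 1.81). Both calls were kept. Another run is the storage gene array SESA1 to SESA4 on chromosome 4, from 13607329 to 13614283, and another the glutathione transferases GSTU6 to GSTU3 on chromosome 2, from 12620060 to 12629543. Neighbours in an array can share reads, and the method of counting shared reads is not given in the sources used here.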

How the data were processed

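RNA-seq of clf-28 and WT roots, 3 libraries each, was analysed. The authors deposited 1 table of FPKM values for 24 libraries, and per the submitters' processing notes TopHat, Cufflinks, Cuffdiff and the TAIR10 genome were used, with no versions of the tools. FPKM values hold no counts, so depth is unknown and no counting interval is given. The table's 48 columns of confidence bounds were not used. Lines with a failed value in a root library, listed at 0, numbered 18 and were left out, and 17 of them would have passed the filter.

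From the FPKM values, log2(FPKM + 1) was fitted with limma 3.58.1 in R 4.3.3 (mean-variance trend, robust prior, two-sided, Benjamini-Hochberg over all 19505 lines with 1 FPKM in at least 3 of the 6 libraries, threshold 0.05, 4 residual degrees of freedom). A second fit of 11 root and shoot libraries tested roots minus shoots, without the library labelled clf-28 shoots replicate 3, whose storage gene levels go against its label. The scripts were tested on simulated data. Of 200 changed lines limma recovered 53.5% at 2-fold and 85.5% at 4-fold, and it called 3 and 10 unchanged lines. A line or list without a call may thus still differ between the groups.

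The 519 entries in 38 gene lists and the root comparison were chosen with earlier results of these data known, and 23 entries occur only in lines merged with other genes. Named genes were CLF, the 15 largest rises and 15 largest falls (at least 2-fold, groups not overlapping, with a symbol), up to 5 members per list by p, up to 3 called members per family, and the 8 with the smallest adjusted p for roots minus shoots. Genes outside this rule, such as AT5G52050, were chosen after their values were seen. The replicates are called biological, with no plant or culture named, so p-values measure the spread between these libraries. Alternatives were other scalings, pseudocounts, filters, priors and sample sets, each library left out, and a replicate block. Promoters and positions came from RefSeq's TAIR10.1.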

Additional observations from a re-analysis of the deposited data

Results flagged for a closer look

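The clf-28 minus WT difference was tested for a difference between roots and shoots, and 2126 of 20745 lines passed (limma, adjusted p under 0.05). The 8 root-called genes with the smallest adjusted p are given with the roots-minus-shoots log2 difference. GA2OX7, which inactivates gibberellin precursors, had 2.78 (adjusted p = 9.12e-06). BGLU24 had 3.62, AT1G12950 (table symbol RSH2) 3.51, sks9 3.02, HAK5 2.96 and NANA, a protease gene, 2.17, with root differences of 4.35, 3.79, 2.80, 2.95 and 1.62. AG had -3.5 and the homeobox gene HB40 -3.19, both higher in clf-28 than in WT in each organ and more so in shoots. HB40 lost its root call without clf-28 replicate 3.

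Seed storage transcripts also appeared in libraries outside the root comparison. SESA4 averaged 105.0 FPKM in 3 clf-28 inflorescence libraries, and the 6-gene storage sum was 144, 305 and 218 FPKM there, against 10.3, 1.7 and 1.0 FPKM in WT inflorescences.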

How the results depend on the processing

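With all 6 root libraries 1776 lines were higher and 888 lower. Fitting all 24 libraries gave 900 and 188, and quantile normalization 1734 lower. Leaving out each replicate in turn gave 765 to 4612 higher and 125 to 3500 lower, with the largest counts without WT replicate 1. The roots-minus-shoots count was 2126, 553 with all 12 libraries as labelled, and 1177 to 4239 with each root library left out. The CLF difference was -0.54, -0.78 and called without WT replicate 1, and -0.78 to -0.41 over the 6 left-out libraries. Same-numbered deviations from the group means correlated at 0.07, 0.02 and -0.02, against -0.08 to 0.06 for the other pairs. With 3 libraries per group this cannot show whether replicate numbers pair the libraries. With the replicate number as a block 904 lines were higher, 160 lower and 1884 differed between the organs, and the CLF difference was -0.54. The block left 10 calls in the abscisic acid list, 9 in iron, 4 in indole glucosinolates, 2 in root hair, 3 in leaf and none in the Casparian strip list. The fit of 24 libraries left 6 calls higher in the abscisic acid list, 4 lower and 1 higher in iron, 2 in indole glucosinolates, and none in ethylene synthesis or leaf. The fit of 22 libraries, without replicate 3 of clf-28 siliques and of clf-28 shoots, gave 1561 and 683, with 9 calls higher in the abscisic acid list, 10 lower and 1 higher in iron, 7 in indole glucosinolates, 11 in leaf and none in ethylene synthesis. Rescaling to nuclear FPKM left 3 root hair genes higher. Of the 154 called genes named in the text, none changed sign under any setting in which it was tested. The fits of 24 and 22 libraries tested 152 of them. Uncalled genes with small differences did: MYB51 had -0.0657 after quantile normalization, -0.000497 after rescaling to nuclear FPKM and -0.237 to 0.367 with each library left out. With each library left out RHD6 ranged from -0.0459 to 0.18, ABI5 from -0.0161 to 0.448, TT4 from -0.806 to 0.242, BBM from -0.349 to 0.136 and RAB18 (AT5G66400) from -0.117 to 0.576. Keeping failed values at 0, an alternative chosen after seeing the data, gave 1772 and 883. The cause of these shifts was not tested. FPKM give no depth, so what depth limits for weak genes is unknown.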
